A study of Mus musculus with 6 samples.

Results

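The collagen chain genes encode the chains that wind around one another into the triple helices of the collagens, the main structural proteins of the extracellular matrix. They were taken as every gene whose symbol has the form Col, number, a, number and that a probe set (the group of array probes read together for a transcript) named as its only gene. Of the 19938 genes measured, 44 met this rule, and the brightest probe set by its mean over the lungs stood for each. They were grouped by the structure their product forms: 11 fibrillar chains, 6 chains of basement membranes, 9 fibril-associated chains with interrupted helices (FACIT), 4 transmembrane chains and 14 others. *Col21a1*, a FACIT chain, had no probe set of its own and has no value here.

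RNA of whole lungs was hybridised to Affymetrix arrays that cover whole transcripts of mouse genes, in embryos at E18.5, late in gestation when the air sacs form, with 1 embryo on each of 6 arrays. The 3 *Tnrc6a* null embryos carried a β-galactosidase gene trap in both copies of *Tnrc6a*, which encodes a protein that works with Argonaute in silencing by microRNAs. The 3 WT embryos were littermates with both copies intact, and both genotypes were on a C57Bl/6 background with no treatment. The trap is carried in every cell of the embryo and is not limited to a cell type, and the comparison asks which transcripts of the lung differ without it.

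Fibrillar collagens are secreted by fibroblasts and assemble into the fibrils that give the airway and vessel walls their tensile strength. Type IV collagen instead forms the mesh of basement membranes, and in the air sacs it lies in the thin wall shared by alveolar type 1 cells and capillary endothelium. FACIT chains bind along fibrils, type VI chains make beaded filaments beside cells, and transmembrane chains stay anchored in the cell that made them. Most type IV genes lie in head-to-head pairs that are read outward from a common control region, *Col4a1* with *Col4a2*, *Col4a3* with *Col4a4* and *Col4a5* with *Col4a6*.

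The promoter windows of *Col4a1* and *Col4a2* are shown because these neighbours had the largest and one of the next largest differences among the chains, in the same direction. Each runs from 250 bases before to 50 after the start of the gene in the RefSeq annotation of GRCm38.p6, at chr8:11312777-11313076 on the minus strand for *Col4a1* and at chr8:11312555-11312854 on the plus strand for *Col4a2*. They are written 5′ to 3′ along each gene, and capitals mark CCAAT boxes (CCAAT or, on the other strand, ATTGG) and GC boxes (GGGCGG or CCGCCC).
Col4a1: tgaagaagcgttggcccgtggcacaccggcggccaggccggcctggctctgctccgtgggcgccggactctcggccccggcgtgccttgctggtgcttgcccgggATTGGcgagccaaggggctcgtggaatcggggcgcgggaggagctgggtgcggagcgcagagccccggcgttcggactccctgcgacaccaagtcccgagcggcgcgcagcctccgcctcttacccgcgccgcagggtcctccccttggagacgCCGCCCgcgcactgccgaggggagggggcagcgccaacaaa
Col4a2: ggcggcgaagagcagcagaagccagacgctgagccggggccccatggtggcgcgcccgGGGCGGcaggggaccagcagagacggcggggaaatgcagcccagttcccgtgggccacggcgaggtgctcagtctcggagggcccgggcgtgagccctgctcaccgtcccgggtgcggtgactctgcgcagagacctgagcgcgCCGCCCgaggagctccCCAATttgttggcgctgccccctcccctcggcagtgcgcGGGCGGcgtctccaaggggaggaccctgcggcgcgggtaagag

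The windows overlap by 78 bases, chr8:11312777-11312854, and 1 GC box lies at the same place in both, read from opposite strands. The windows of *Col4a5* and *Col4a6* on chromosome X did not overlap and lay 842 bases apart. Windows were found for 35 of the 44 chains, 38 windows in all. A CCAAT box lay in 13 of these (34.2%), against 37.4% of the 32851 windows of all genes, and a GC box in 23 (60.5%), against 35.7%. A match is a description of the letters and not a site shown to be used.

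The probe set of *Tnrc6a* read 7.38, 7.13 and 7.18 on the deposited log scale in WT replicates 1, 2 and 3 and 5.45, 5.04 and 5.4 in *Tnrc6a* null replicates 1, 2 and 3, so every library bore out its label. It differed by −1.93 (null minus WT, SE 0.13, limma adjusted p = 0.00312) and was the only gene of the 19938 past an adjusted p of 0.05, or 0.00502% of them. Array medians were between 4.98 and 5.03. The labels call the scale log2 and this was not checked here, so changes are given as differences and not as folds. The lung label was borne out by surfactant protein C, *Sftpc*, at 11.64 to 11.82 in the 6 lungs. Across genes, the values of WT replicate 1 were closest to those of null replicate 3 (correlation 0.992), a lung of the other genotype. For a single gene the smallest exact two-sided permutation p that these 6 lungs allow is 0.1. In simulated lungs limma called 23.9% of genes changed by 0.5, 62.7% at 1 and 93.9% at 2, and no chain differed by as much as 0.5. The simulation changed 67 genes by 0.5, 67 by 1 and 66 by 2, with noise drawn separately for each gene. More changed genes ease the adjusted threshold, and only *Tnrc6a* passed it in the real lungs. The simulated rates may therefore be too high for the chains.

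None of the 44 chains passed an adjusted p of 0.05 from limma, and none did by the methods' t-test; the smallest adjusted p from limma was 0.89. Of the chains, 21 were lower and 23 higher in null lungs, with a median difference of 0.005, where the median over all genes was 0.0 and 49.8% of genes were lower. The split moved with the scaling. It was 15 lower chains when arrays were centred on the probe sets with 1 gene symbol, and 25 when centred on all probe sets. When 1 lung was left out, lower chains ran from 11 without null replicate 1 to 25 without null replicate 3. The differences ran from −0.29 for *Col4a1* to 0.28 for *Col12a1*. At an unadjusted p under 0.05, limma gave 2 lower chains, *Col4a1* and *Col4a2* (4.55% of chains, against a background of 2.96% of all genes lower at that threshold), and 1 higher chain, *Col6a4* (2.27%, against 2.46%); the methods' t-test gave 3 chains, *Col4a2*, *Col6a1* and *Col6a4*. In 3 chains the highest null lung was lower than the lowest WT lung, *Col4a1*, *Col4a2* and *Col6a1* (6.82%, against 5.51% of all genes). In 2 chains the lowest null lung was higher than the highest WT lung, *Col6a4* and *Col8a1* (4.55%, against 4.67%). Each of these shares lay near that of all genes. The median SD within a genotype was 0.118 over the chains, against 0.154 over all genes. Of the 44 chains 29 lay above the median signal, and no SD was taken over genes of like signal.

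**Figure D1:**
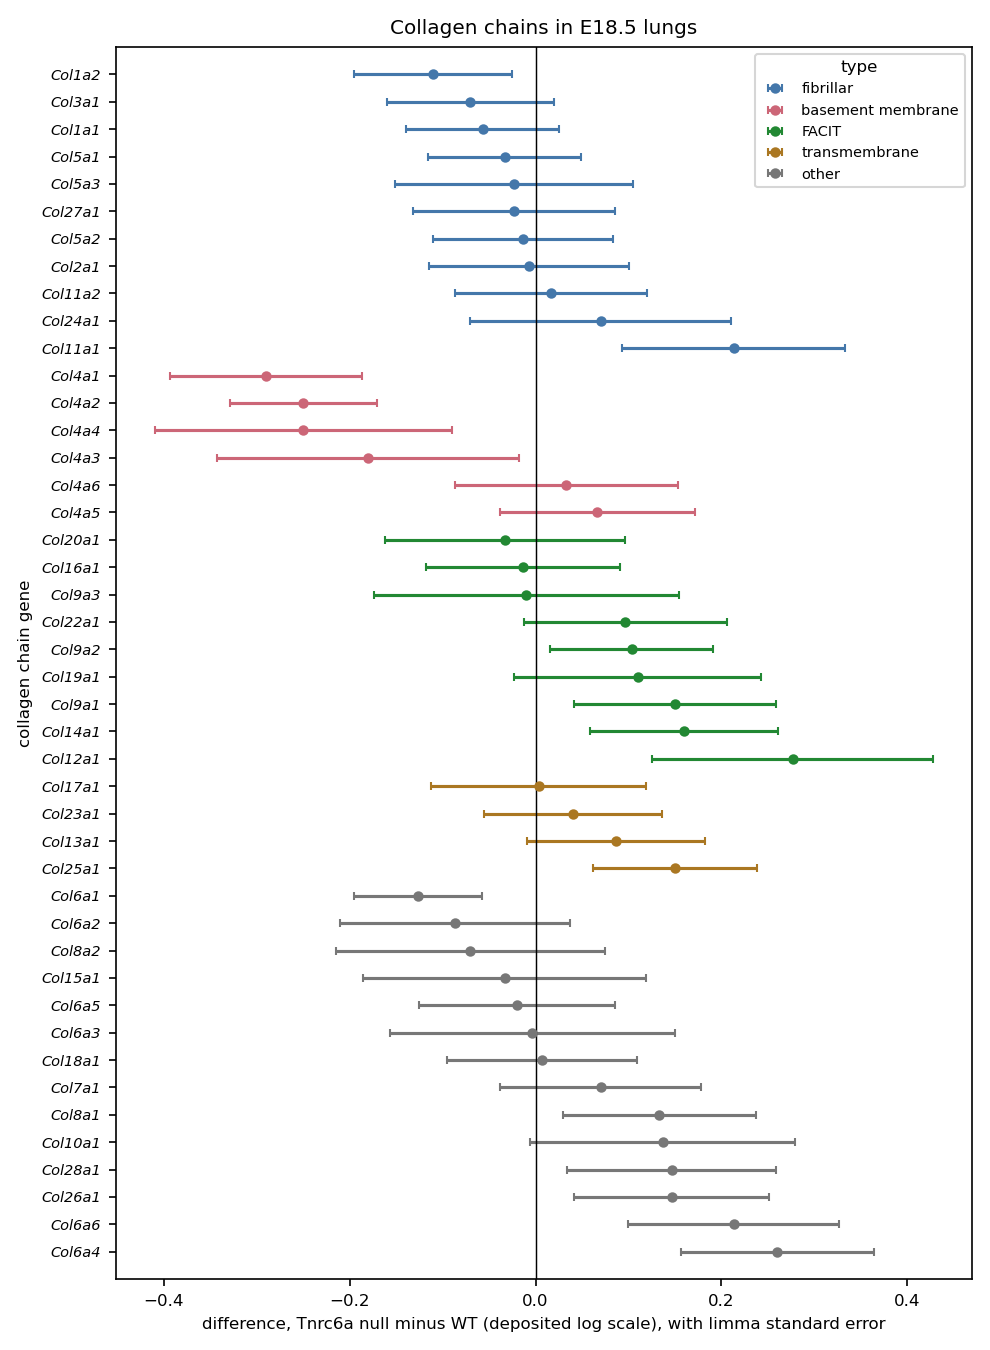
Difference of each of the 44 collagen chains between *Tnrc6a* null and WT lungs on the deposited log scale (horizontal axis), with bars of 1 limma standard error, ordered within each structural type and coloured by it. *Col4a1* to *Col4a4* stand at the left, from −0.29 to −0.18, while *Col4a5* and *Col4a6* lie at 0.07 and 0.03 and the 4 transmembrane chains lie above 0.

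The basement membrane chains held the lowest differences. *Col4a1* and *Col4a2* encode the chains of the type IV collagen found in nearly every basement membrane. *Col4a1* read 8.23, 8.53 and 8.32 in WT lungs and 8.03, 8.22 and 7.96 in null lungs. The genotypes did not overlap, but only 0.01 separated the highest null lung from the lowest WT lung. Its difference was −0.29 (SE 0.10, 95% interval −0.53 to −0.06, limma adjusted p = 0.89). *Col4a2* read 8.10, 8.28 and 8.12 in WT lungs and 7.86, 7.97 and 7.92 in null lungs. All null lungs were again lower, by −0.25 in the mean (SE 0.08, 95% interval −0.43 to −0.07, adjusted p = 0.89). Both differences rested in part on WT replicate 2, the highest lung for each gene. Without it they were −0.21 and −0.19 and neither chain was at an unadjusted p under 0.05. *Col4a1* also missed that threshold without null replicate 1, without null replicate 3 and after quantile normalization. In whole lung, fewer cells of a type and less RNA per cell cannot be told apart.

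*Col4a3* and *Col4a4* encode chains of the specialised type IV network of the alveolar wall and kidney filter. *Col4a4* read 5.62, 6.08 and 6.11 in WT lungs and 5.67, 5.91 and 5.48 in null lungs, a difference of −0.25 (SE 0.16). *Col4a3* read 6.05, 6.59 and 6.42 in WT lungs and 6.21, 6.39 and 5.92 in null lungs, a difference of −0.18 (SE 0.16). In both genes WT replicate 1 and null replicate 3 were the lowest lungs of their genotypes and the groups overlapped. Each value turned on single lungs. Leaving out WT replicate 1 moved *Col4a4* to −0.41, and leaving out null replicate 3 moved it to −0.15. For *Col4a3* the same omissions gave −0.33 and −0.05, and omitting WT replicate 2 gave −0.06. With both of the low lungs omitted the differences were −0.31 for *Col4a4* and −0.21 for *Col4a3*. The remaining pair did not follow: *Col4a5*, which joins the alveolar network, differed by 0.07 (95% interval −0.17 to 0.30), and *Col4a6* by 0.03 (95% interval −0.24 to 0.31). Whether the pairs differ from each other was not tested. Over the 6 type IV chains 4 were lower, with a median difference of −0.22, which fell to −0.31 when WT replicate 1 was left out and was −0.12 when WT replicate 2, or −0.10 when null replicate 3, was left out.

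**Figure D2:**
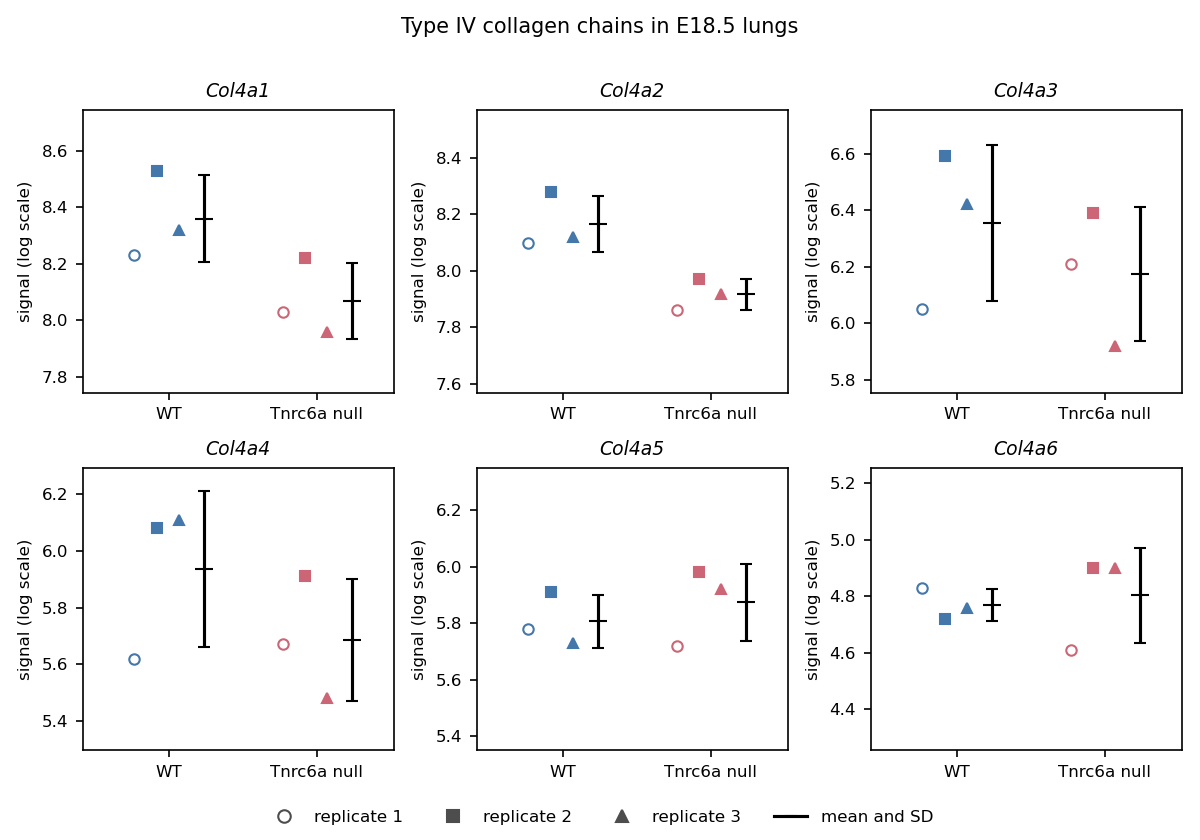
Signal on the deposited log scale (vertical axis, a span of 1 unit in every panel) of the 6 type IV collagen chains in each WT (blue) and *Tnrc6a* null (red) lung, with the symbol giving the replicate and black bars the mean and SD of 3 lungs. The genotypes separate for *Col4a1* and *Col4a2*, and overlap for the other chains.

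Beside the type IV chains stand their partners in the basement membrane, 14 measured genes of 15 listed. Of these, 13 were above the median signal of all genes. In all 10 were lower (71.4%, against 65.4% of genes above the median signal) and 3 were lower at an unadjusted p under 0.05 (21.4%, against 5.25%), with a median difference of −0.05. That median was −0.10 without null replicate 3. Agrin, *Agrn*, a proteoglycan of basement membranes, differed by −0.22 (SE 0.08). Nidogen 1, *Nid1*, which bridges laminin and type IV collagen, differed by −0.22 (SE 0.08), and laminin β1, *Lamb1*, by −0.16 (SE 0.07). In these 3 genes the genotypes did not overlap (21.4% of the list, against 5.51% of all genes). That share was not taken over genes above the median signal alone. Laminin α2, *Lama2*, differed by −0.39 with overlapping genotypes (SE 0.20). Averaged over the 14 partners, the null lungs deviated from the mean of the 6 lungs by −0.12 to −0.01 and the WT lungs by 0.02 to 0.07.

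No fibrillar chain was at an unadjusted p under 0.05, and in none did the genotypes separate. *Col1a1* and *Col1a2* encode the chains of type I collagen, the main fibril former of connective tissue. *Col1a1* read 9.16, 9.08 and 9.15 in WT lungs and 8.99, 9.01 and 9.22 in null lungs. Null replicate 3 was the highest of all lungs and the other null lungs the lowest, with a difference of −0.06 (95% interval −0.24 to 0.13). *Col1a2* read 8.74, 8.69 and 8.74 in WT lungs and 8.60, 8.48 and 8.76 in null lungs, again with null replicate 3 the highest of all lungs. Its difference was −0.11 (95% interval −0.30 to 0.08). *Col3a1*, the chain of type III collagen of pliable tissues, read 7.83, 8.0 and 8.02 in WT lungs and 7.89, 7.99 and 7.76 in null lungs. Its lungs overlapped throughout, and the difference was −0.07 (95% interval −0.28 to 0.14). The lower ends of these 3 intervals lay between −0.30 and −0.24.

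Type V chains set the width of type I fibrils, and *Col5a1*, *Col5a2* and *Col5a3* differed by −0.03, −0.01 and −0.02. *Col5a1* had the smallest spread of all chains, with an SD within a genotype of 0.0432. The type XI chain *Col11a1*, found mostly in cartilage fibrils, read 4.75, 5.04 and 4.76 in WT lungs and 5.08, 5.14 and 4.97 in null lungs. WT replicate 2 lay among the null lungs, and the difference was 0.21 (SE 0.12). Its partner *Col11a2* differed by 0.02, and the cartilage collagen *Col2a1* by −0.01. *Col24a1* and *Col27a1*, fibrillar chains of developing bone and cartilage, differed by 0.07 and −0.02. Over the 11 fibrillar chains 8 were lower, with a median difference of −0.02, which ran from −0.07 to 0.04 when 1 lung was left out.

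The chains of type VI collagen lay on both sides of 0. *Col6a1* read 8.60, 8.53 and 8.62 in WT lungs and 8.41, 8.50 and 8.46 in null lungs. Every null lung was lower, by −0.13 in the mean (SE 0.07, 95% interval −0.28 to 0.03). *Col6a2*, its neighbour on chromosome 10, read 8.89, 8.63 and 8.65 in WT lungs and 8.51, 8.50 and 8.90 in null lungs. WT replicate 1 and null replicate 3 were the highest lungs, and the difference was −0.09 (SE 0.12). *Col6a3*, the third chain of the classic filament, read 8.81, 8.40 and 8.34 in WT lungs and 8.43, 8.32 and 8.79 in null lungs. The same 2 lungs stood well above the other 4, which left a difference of −0.003 with an SE of 0.15.

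*Col6a4*, *Col6a5* and *Col6a6* are neighbours on chromosome 9 and encode chains that can take the place of the third chain. *Col6a4* read 5.01, 5.03 and 5.12 in WT lungs and 5.24, 5.44 and 5.26 in null lungs. Every null lung was higher, by 0.26 in the mean (SE 0.10, 95% interval 0.02 to 0.50, adjusted p = 0.89). Leaving out WT replicate 1, WT replicate 2 or null replicate 2 took its unadjusted p above 0.05. *Col6a6* read 5.56, 5.58 and 5.89 in WT lungs and 5.91, 5.81 and 5.95 in null lungs, so that WT replicate 3 lay among the null lungs (difference 0.21, SE 0.11). A dimmer probe set of *Col6a6* differed by 0.25. *Col6a5*, which lies between them, differed by −0.02 in its brighter probe set and by −0.25 in its dimmer one.

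**Figure D3:**
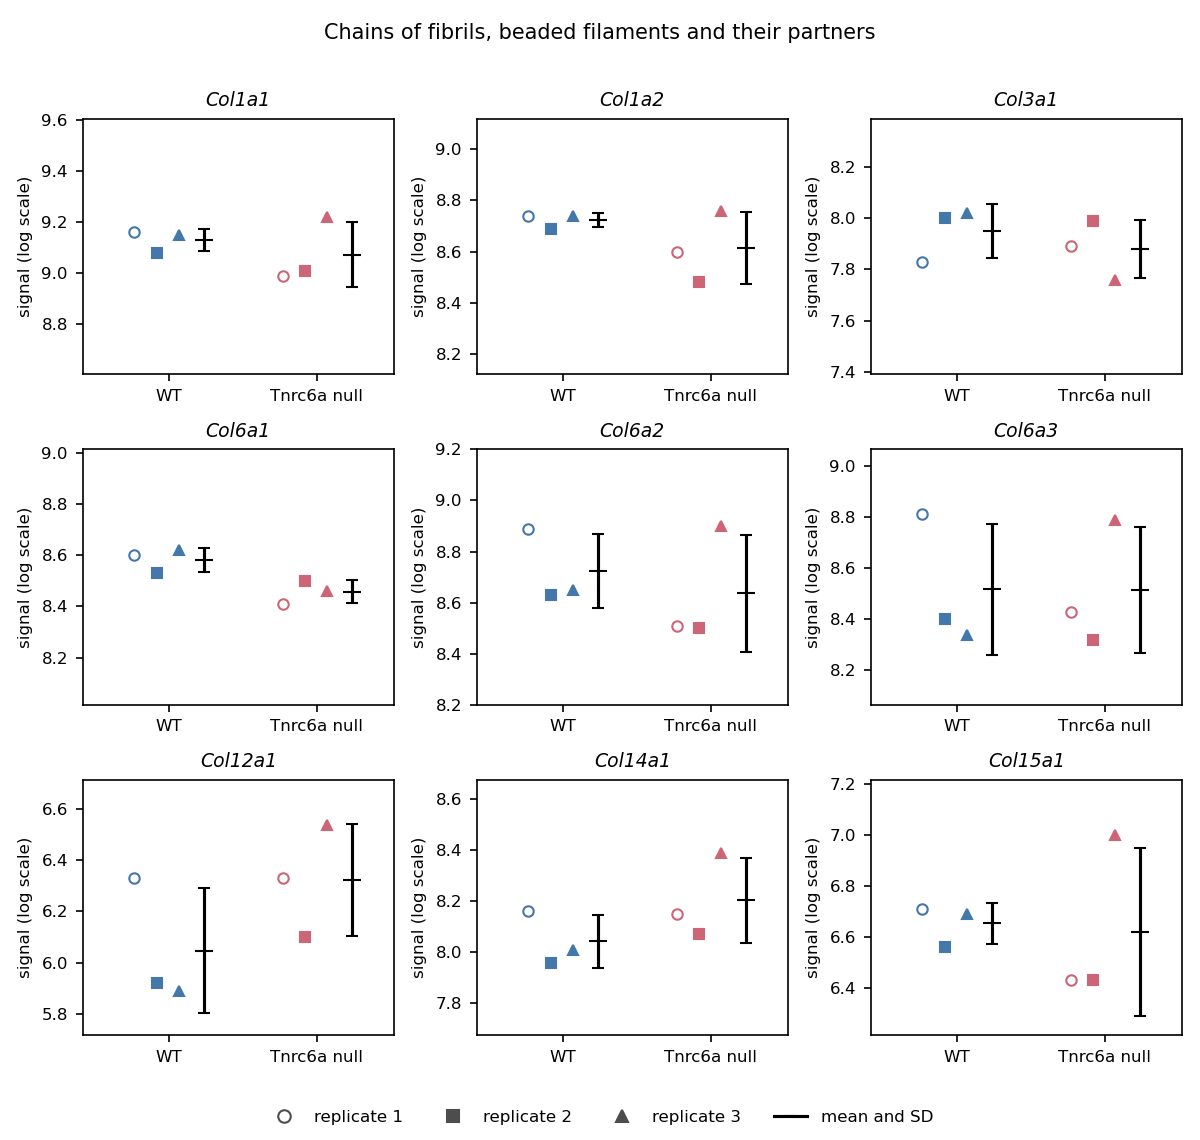
Signal on the deposited log scale (vertical axis, a span of 1 unit in every panel) of 9 collagen chains in each WT (blue) and *Tnrc6a* null (red) lung, with the symbol giving the replicate and black bars the mean and SD of 3 lungs. WT replicate 1 and null replicate 3 lie above the other lungs for *Col1a1*, *Col6a2*, *Col6a3*, *Col14a1* and *Col15a1*, and the genotypes separate for *Col6a1* alone of these 9.

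The FACIT chains had a median difference of 0.10 (0.06 to 0.16 when 1 lung was left out), with 3 of 9 lower. *Col12a1*, which lies along type I fibrils of dense tissue, read 6.33, 5.92 and 5.89 in WT lungs and 6.33, 6.10 and 6.54 in null lungs. Its difference of 0.28 was the highest of the 44 chains (SE 0.15, 95% interval −0.07 to 0.62), and WT replicate 1 lay among the null lungs. Omitting WT replicate 1 gave 0.42 and omitting null replicate 3 gave 0.17. *Col6a4* or *Col11a1* was above it when WT replicate 2, WT replicate 3, null replicate 1 or null replicate 3 was left out. *Col14a1*, a relative that binds the same fibrils, differed by 0.16 (SE 0.10) with null replicate 3 highest. The type IX chains of cartilage, *Col9a1*, *Col9a2* and *Col9a3*, differed by 0.15, 0.10 and −0.01. *Col16a1*, *Col19a1*, *Col20a1* and *Col22a1* differed by −0.01, 0.11, −0.03 and 0.10, each by less than its standard error. The cartilage markers measured beside them, 15 genes, were lower in 6 and higher in 9, with a median difference of 0.02. Their lung means overlapped, while in 1 marker, *Cytl1*, every null lung was below every WT lung. Of the 7 markers above the median signal 5 were lower (71.4%, against 65.4% of all such genes), with a median of −0.13. Of the 8 below it 1 was lower, with a median of 0.075.

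No transmembrane chain was lower. *Col25a1*, first known from amyloid plaques of the brain, had the largest of these differences, 0.15 (SE 0.09). *Col13a1*, a chain of cell-matrix junctions, differed by 0.09. *Col23a1* differed by 0.04 and *Col17a1*, which anchors basal epithelial cells, by 0.003.

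Among the remaining chains, *Col8a1*, a network chain of vessel walls, read 4.73, 4.76 and 4.90 in WT lungs and 4.93, 4.94 and 4.92 in null lungs. The null lungs lay just above the highest WT lung and within 0.02 of each other, with a difference of 0.13 (SE 0.10). Its partner *Col8a2* differed by −0.07. *Col15a1* and *Col18a1*, which carry heparan or chondroitin sulphate at basement membranes, differed by −0.03 and 0.01. *Col7a1*, the anchoring fibril chain of skin, differed by 0.07, and *Col10a1*, the chain of hypertrophic cartilage, by 0.14. *Col26a1* and *Col28a1* each differed by 0.15.

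**Figure D4:**
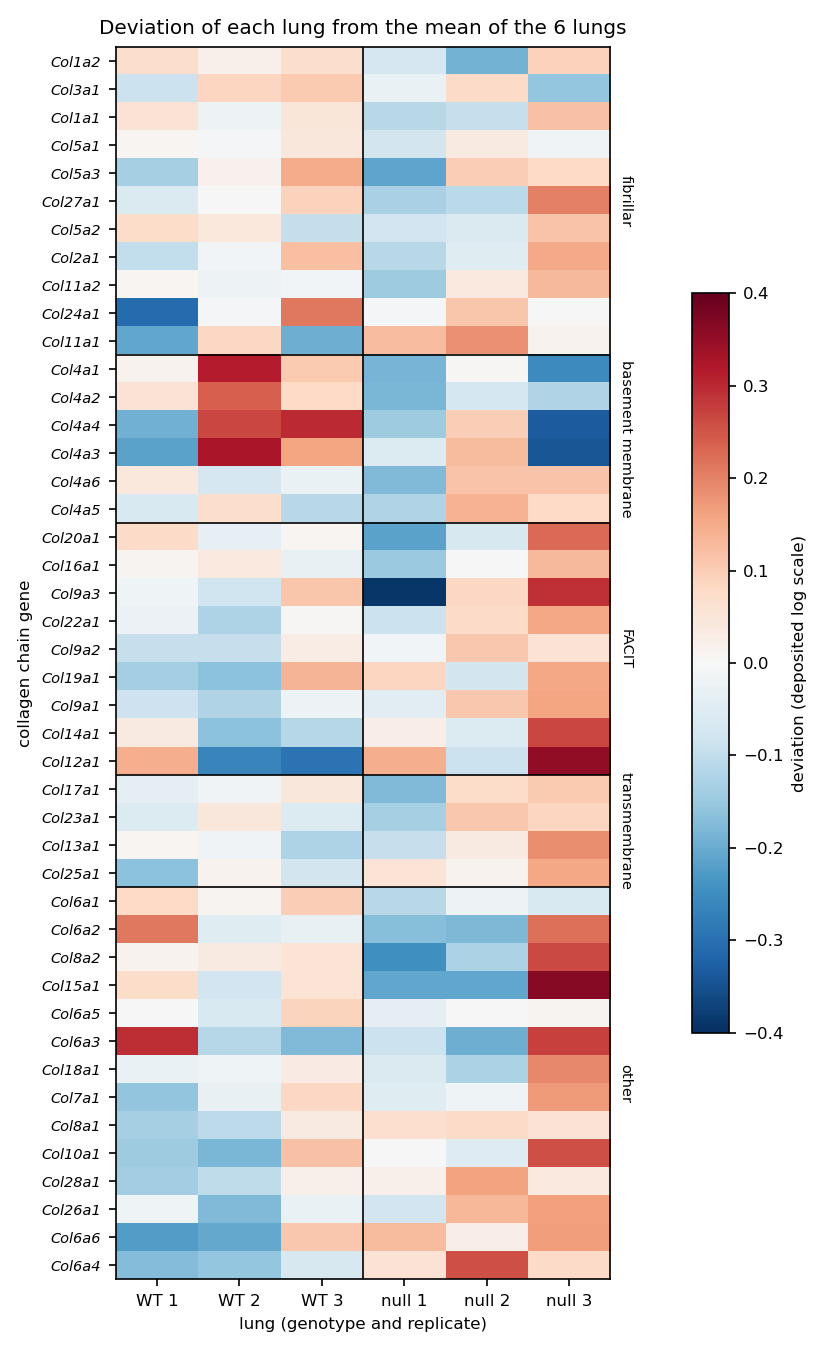
Deviation of each lung (columns) from the mean of the 6 lungs for each of the 44 collagen chains (rows, grouped by type), on the deposited log scale, with red above and blue below the mean. Null replicate 3 is red in most FACIT, transmembrane and other chains and dark blue in *Col4a1*, *Col4a3* and *Col4a4*.

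The chains also varied from lung to lung within a genotype. Averaged over the 44 chains, WT replicates 1, 2 and 3 deviated by −0.04, −0.02 and 0.02 from the mean of the 6 lungs, and null replicates 1, 2 and 3 by −0.08, 0.01 and 0.10. The null lungs thus spanned more than the WT lungs, and enclosed them. WT replicate 1 and null replicate 3 both lay above all other lungs of either genotype in 7 chains, *Col14a1*, *Col15a1*, *Col1a1*, *Col20a1*, *Col5a2*, *Col6a2* and *Col6a3* (15.9%, against 9.04% of all genes). They both lay below all other lungs in 3 chains, *Col3a1*, *Col4a3* and *Col4a4* (6.82%, against 23.2% of all genes). *Col15a1* showed the most of this in null lungs, at 6.43, 6.43 and 7.0. Without both lungs limma gave 6 lower chains at an unadjusted p under 0.05, *Col15a1*, *Col1a2*, *Col4a1*, *Col4a2*, *Col4a4* and *Col6a2*, and 1 higher chain, *Col12a1*, and none passed the adjusted threshold. That fit raised the genes at that p in either direction from 1081 to 2895 of all 19938, and the chains from 3 to 7 of 44.

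The sign of a difference also went with the brightness of the probe set, in all genes and in the chains. Among the dimmest 10% of all genes the median difference was 0.15, and among the brightest 10% it was −0.06 with 72.2% of genes lower. The brightest 10% held 9 chains, of which 8 were lower, *Col1a1*, *Col1a2*, *Col3a1*, *Col4a1*, *Col4a2*, *Col6a1*, *Col6a2* and *Col6a3*, and *Col14a1* was higher. Of the 29 chains above the median signal 17 were lower (58.6%, against 65.4% of all such genes), and of the 15 chains below it 4 were lower (26.7%, against 34.2%). The part of this trend in the differences of *Col4a1*, *Col4a2* and *Col6a4* was not tested.

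Collagen chains are hydroxylated, folded, exported, trimmed and cross-linked by dedicated proteins, and cells bind and break down the product with others. In these lists 83 genes were measured of 89 listed, and 16 were lower at an unadjusted p under 0.05 from limma (19.3%, against 2.96% of all genes and 5.25% of genes above the median signal, where 66 of the 83 lay). None was higher at that threshold and none passed the adjusted one (smallest adjusted p = 0.89). The median difference was −0.08. The count moved with single lungs. Leaving out null replicate 1 gave 5, WT replicate 2 gave 6 and WT replicate 3 gave 7. Leaving out WT replicate 1 gave 20, null replicate 2 gave 13 and null replicate 3 gave 12. Over all genes, those at that p in either direction numbered 1081 with every lung included. In the same order of omissions they numbered 731, 614, 667, 1730, 1094 and 1723. The genes of these lists share cell types, so they are not independent of each other.

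Among the 17 proteins of chain modification and folding, 10 were lower (58.8%, against 65.4% of genes above the median signal, where 16 of them lay) and 3 were lower at an unadjusted p under 0.05 (17.6%, against 5.25%). *Plod1*, a lysyl hydroxylase of collagen, read 7.97, 8.07 and 7.96 in WT lungs and 7.63, 7.78 and 7.69 in null lungs (difference −0.30, SE 0.08). All null lungs lay clearly below the WT lungs. *Serpinh1*, the collagen chaperone HSP47, read 8.03, 8.17 and 8.12 in WT lungs and 7.82, 7.82 and 7.99 in null lungs (difference −0.23, SE 0.08). *Plod3*, which hydroxylates lysines and adds sugars to them, differed by −0.18 (SE 0.08) and the prolyl 3-hydroxylase *P3h1* by −0.18 (SE 0.09). In each of these 4 genes the genotypes did not overlap (23.5% of the list, against 5.51% of all genes). No share of this kind was taken over genes above the median signal alone.

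Of 8 genes of collagen export 4 were lower and none passed the unadjusted p, with *Tmem38b*, an ion channel of the endoplasmic reticulum, and *Sar1b*, a GTPase of transport vesicles, at −0.18 and −0.15. Among 7 genes of propeptide cleavage, *Adamts14*, a procollagen N-proteinase, differed by −0.27 (SE 0.10). Among 5 cross-linking genes, *Loxl1*, a lysyl oxidase, differed by −0.19 (SE 0.08), and *Pxdn*, the peroxidase that joins type IV molecules by sulfilimine bonds, by −0.16 (SE 0.07). *Lox* itself differed by −0.09 with overlapping lungs. Of 12 fibril-associated proteins 9 were lower (75.0%, against 65.4% of genes above the median signal, where 10 of them lay). Periostin, *Postn*, differed by −0.30 (SE 0.11), and asporin, *Aspn*, by −0.43 (SE 0.20), with WT replicate 1 at 7.79 far above the other lungs, which lay between 6.73 and 7.0.

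Of 9 collagen receptors 7 were lower (77.8%, against 49.8% of all genes), with a median difference of −0.20 that was −0.12 without null replicate 3. The 6 receptors above the median signal were all lower, where 65.4% of all such genes were. *Mrc2*, the receptor that takes up collagen for breakdown, read 7.79, 7.78 and 7.71 in WT lungs and 7.49, 7.34 and 7.58 in null lungs (difference −0.29, SE 0.08). The receptor kinase *Ddr1* differed by −0.20 (SE 0.08), and the integrin chains *Itga1* and *Itga11* by −0.21 and −0.31. Of 11 degradation genes 6 were lower (54.5%, against 49.8% of all genes) and 4 were lower at an unadjusted p under 0.05 (36.4%, against 2.96%). These 4 were among the 5 degradation genes above the median signal, where 5.25% of all genes were lower at that threshold. The inhibitor *Timp2* read 7.96, 8.22 and 8.23 in WT lungs and 7.85, 7.78 and 7.5 in null lungs (difference −0.43, SE 0.12). The gelatinase *Mmp2* differed by −0.25 (SE 0.10), the membrane collagenase *Mmp14*, which activates it, by −0.22 (SE 0.09), and the inhibitor *Timp3* by −0.18 (SE 0.07).

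**Figure D5:**
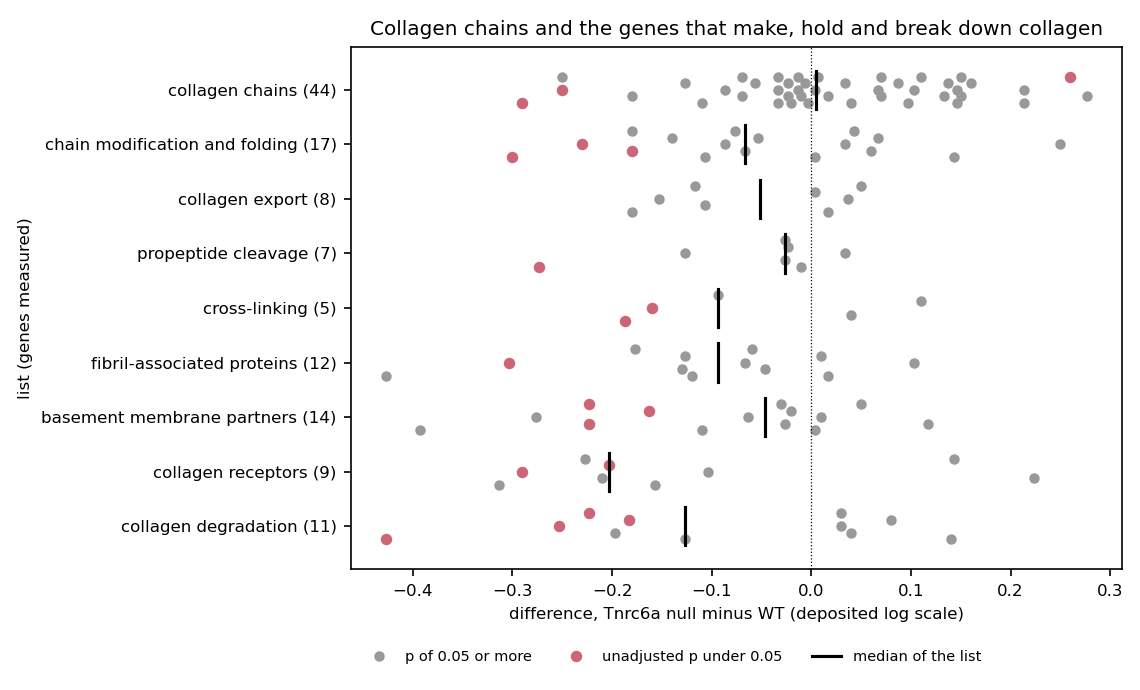
Difference between *Tnrc6a* null and WT lungs on the deposited log scale (horizontal axis) of each collagen chain and each gene of 8 related lists (vertical axis, with the number of genes measured); points are genes, spread vertically to be seen, coloured where limma gave an unadjusted p under 0.05, and black lines are medians. All 16 coloured points of the 8 related lists lie below 0.

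Markers of several cell types of the lung were measured beside these genes. The fibroblast, endothelial, alveolar type 1, alveolar type 2 and proliferation markers were all above the median signal, where 65.4% of genes were lower. Of the 9 smooth muscle markers 7 were above it, and of the 7 macrophage markers 5 were. All 9 fibroblast markers were lower, with a median difference of −0.15 (−0.09 without WT replicate 2), and their mean deviated by 0.04 to 0.09 in WT lungs and by −0.08 to −0.04 in null lungs. Of 10 endothelial markers 9 were lower (median −0.12, and −0.19 without WT replicate 1), with overlapping lung means of −0.02 to 0.10 and −0.11 to −0.02. All 8 alveolar type 1 markers were lower (median −0.22), with lung means of 0.04 to 0.16 in WT and −0.22 to 0.01 in null lungs. *Cdh5*, the cadherin of endothelial junctions, differed by −0.23 and *Pdgfrb*, a receptor of fibroblasts and pericytes, by −0.27. Of 9 smooth muscle markers 5 were lower (median −0.05, lung means −0.03 to 0.09 in WT and −0.08 to 0.02 in null lungs). Of 8 alveolar type 2 markers 3 were lower, with a median difference of 0.01. All 7 macrophage markers were lower (median −0.21, moving to −0.40 when WT replicate 1 was omitted and −0.08 when null replicate 3 was), with lung means of −0.18 to 0.28 in WT and −0.32 to −0.001 in null lungs. All 11 proliferation markers were higher (median 0.24, moving to 0.43 and 0.07 with the same omissions), with lung means of −0.30 to 0.21 in WT and −0.16 to 0.35 in null lungs. No listed marker was at 0, and the part of these cells in the differences of the collagen chains was not tested.

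MicroRNAs of the miR-29 family are known for binding many collagen mRNAs, among them those of type I, III and IV chains, and *Tnrc6a* encodes a partner of the silencing complex. The mature forms share the seed, bases 2 to 8, given in capitals below from RefSeq.
mmu-miR-29a-3p: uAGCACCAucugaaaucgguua
mmu-miR-29b-3p: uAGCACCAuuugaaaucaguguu
mmu-miR-29c-3p: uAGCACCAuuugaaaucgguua
The array reads precursor or host transcripts at these loci and not the mature forms. *Mir29a* read 1.88, 2.06 and 2.45 in WT lungs and 2.59, 2.06 and 1.72 in null lungs, a difference of −0.01, and *Mir29b-1* differed by 0.16 (SE 0.29). Both lay in the dimmest part of the scale with overlapping genotypes, and *Mir29b-2* and *Mir29c* had no probe set with a single symbol.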

How the data were processed

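The authors deposited 1 processed value per probe set and lung on a scale the labels call log2; the submitters' processing notes name MAS5, with no version given. Values were used as deposited, and no scanner data were used. Of 35045 probe sets, 21789 had 1 gene symbol, 1621 had several and 11635 had none. For 21698 of those with 1 symbol the Entrez ID was found in RefSeq of GRCm38.p6. The RefSeq name was used for these, whether or not it differed from the old one. Genes (19938) were tested in R 4.3.3 with limma 3.58.1 (lmFit, eBayes with trend; 3 WT against 3 *Tnrc6a* null; Benjamini-Hochberg over all genes, threshold 0.05). Tables and plots were made with Python 3.11.15, pandas 2.3.3, scipy 1.17.1 and matplotlib 3.10.9. The fit was also tested on simulated lungs. With 6 arrays the precision is limited, and p-values measure the spread between 3 single embryos per genotype.

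The members, lists and tests were chosen with earlier results of these data known, so no list was tested. Lung values are given for the major fibrillar, type IV and type VI chains, for chains at an unadjusted p under 0.05 or with separated genotypes, and for the 3 largest differences each way with ties; other lists name up to 4 members with the smallest p, and *Sftpc*, *Col4a3* and other genes given lung values were added after their values were seen. Of the marker lists not described above, airway epithelium (4 of 6 genes lower), mesothelium (4 of 5) and erythroid cells (1 of 4) had median differences of −0.05, −0.09 and 0.15. Deviations of same-numbered WT and null lungs from their genotype means had correlations of −0.295, 0.361 and −0.162. The highest correlation across genotypes was 0.538, of WT replicate 1 with null replicate 3. The labels pair no lungs across genotypes, so the replicate numbers were not used as pairs.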

Additional observations from a re-analysis of the deposited data

How the results depend on the processing

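No chain passed an adjusted p of 0.05 under any of 16 other settings or without WT replicate 1 and null replicate 3 together, a fit chosen after seeing the data. The 17 chains whose difference exceeded its standard error kept their direction under all of them where measured. These 17 were chosen by the same differences. The replicate block, eBayes without trend, robust eBayes, the t-test and the subset above the median signal leave a difference unchanged and could not turn it. Lower chains at an unadjusted p under 0.05 numbered 2. The number was 1 with quantile normalization, 6 without WT replicate 1 and null replicate 3, and 0 to 4 without 1 lung. Over all genes, those at that p in either direction numbered 1081, and 2895 without WT replicate 1 and null replicate 3. The 1 higher chain became 0 with quantile normalization, 0 when centred over all probe sets, 0 with only genes above the median signal (where it was not tested), 2 with array weights and 1 to 2 without 1 lung. With the replicate block it became 0, as *Col6a4* was lost while *Col4a1* and *Col4a2* stayed; no adjusted call among the chains changed. The median difference over the collagen chains was 0.005, and it was −0.04 without WT replicate 1 and null replicate 3 and −0.0325 to 0.0917 without 1 lung, the last without null replicate 1. Lower genes of collagen synthesis and matrix numbered 16, with 8 under quantile normalization, 8 under eBayes without trend and 5 to 20 without 1 lung. Genes past the adjusted p among all genes numbered 1, with 2 under array weights, 0 by the methods' t-test, 0 to 1 without 1 lung (*Tnrc6a* had an adjusted p of 0.0552 without WT replicate 3) and 23 without WT replicate 1 and null replicate 3. *Col4a1* ran from −0.37 to −0.21 and *Col4a2* from −0.28 to −0.19 without 1 lung. The cause of these shifts was not tested. The limits are 3 lungs a genotype, a log base that was not checked and no measure of signal over background, so dim chains may not have been detected.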
